A study of Mus musculus with 8 samples.

Results

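The comparison set small RNAs of NIH-3T3 cells 24 h after serum against those 12 h after serum. Both times carry the label G1: at 24 h, per the phases named for the times between them, cells had passed through S and G2/M, and at 12 h they had come out of quiescence. The members are 2 of the 8 libraries of the series, chosen by their time and phase labels alone. NIH-3T3 is an immortalised mouse embryo fibroblast line. All serum libraries came from cells kept in DMEM with 10% DCS, deprived of serum for 48 h and then given medium with 20% serum. The 24 h (G1) and 12 h (G1) libraries were set beside those of 0 h (G0), 16 h (S) and 20 h (G2/M). The 3 libraries of the contact experiment were day 0 (asynchronous), day 3 (G0) and day 5 (G0). They entered the scaling, the learning of the adapter and the definition of arms from reads. There was 1 library per time, so no spread between cultures can be given, no p-value was computed, and the phases are those of the labels, with no measure of DNA content used here.

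MicroRNAs (miRNAs) are RNAs of about 22 bases cut from the arms of a hairpin, the 5′ arm giving the 5p product and the 3′ arm the 3p product. Loaded into an Argonaute protein, a miRNA pairs with messenger RNAs mainly through its seed, bases 2 to 8, and lowers their translation and stability. Several families act on the G1 to S step: the miR-15 and miR-16 family represses D-type and E-type cyclins, the miR-17 family represses the Cdk inhibitor p21 and the Rb family, and let-7 represses Ras and Hmga2. The miR-290 to miR-295 cluster, with a seed close to that of the miR-17 family, represses p21 and Rbl2 in mouse embryonic stem cells.

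The mature sequences below are of the arms on which the comparison turns (RefSeq, build GRCm38.p6, 5′ to 3′, seed in capitals). Of the 92 arms named by rule, 83 had a mature sequence in that table. The first set stood higher at 24 h. miR-106b-5p, miR-17-5p and miR-20a-5p share the seed AAAGUGC with miR-93-5p, and miR-27b-3p has that of miR-27a-3p.
miR-7a-5p: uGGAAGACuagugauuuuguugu
miR-186-5p: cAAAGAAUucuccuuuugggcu
miR-28a-3p: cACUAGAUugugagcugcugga
miR-10b-5p: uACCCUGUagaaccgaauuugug
miR-15b-5p: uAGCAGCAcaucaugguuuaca
miR-106b-5p: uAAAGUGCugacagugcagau
miR-17-5p: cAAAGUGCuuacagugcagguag
miR-20a-5p: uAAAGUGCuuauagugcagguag
miR-93-5p: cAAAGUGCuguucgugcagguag
miR-27b-3p: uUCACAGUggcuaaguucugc
miR-27a-3p: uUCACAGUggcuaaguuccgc

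The next set stood lower at 24 h. The seeds of miR-291a-3p and miR-294-3p share 6 letters, AAGUGC, with the miR-17 seed, shifted by 1 base.
miR-291a-3p: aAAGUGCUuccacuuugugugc
miR-294-3p: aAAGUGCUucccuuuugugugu
miR-182-5p: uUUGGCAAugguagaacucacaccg
miR-1193-3p: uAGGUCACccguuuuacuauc
miR-214-5p: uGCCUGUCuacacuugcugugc
miR-379-3p: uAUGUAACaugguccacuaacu
miR-199a-5p: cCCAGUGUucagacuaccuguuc

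Each library held distinct reads of 36 bases with their counts. In total, 7449478 reads were deposited at 24 h and 8512472 at 12 h. Marker oligonucleotides took 94.6% of them at 24 h and 94.2% at 12 h, against 93.7% at 20 h, 78.2% at 16 h and 62.2% at 0 h. The reads counted for a miRNA were 135728 at 24 h and 200790 at 12 h.

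The 12 h library stood apart in how its reads were spread over sequences. At 24 h, 314 arms were seen, 74 of them with 1 to 9 reads. At 12 h, 227 arms were seen, and only 8 had 1 to 9 reads. Arms with 10 to 99 reads numbered 142 at 24 h and 88 at 12 h, and those with 100 reads or more 98 at 24 h and 131 at 12 h. The 12 h library thus had fewer arms in the classes under 100 reads and more above. At a common depth of 135728 miRNA reads, 2065 distinct miRNA inserts were seen at 24 h and 1165 expected at 12 h. Among distinct inserts with 3 to 200 reads, and leaving out those 1 base from a sequence with at least 5 times their reads, the median insert had 6 reads at 24 h (quartiles 4 and 10) and 30 at 12 h (13 and 51). The same median was 10 at 0 h, 5 at 16 h and 5 at 20 h. The 12 h library thus held fewer distinct sequences, each read more often, and an interval that treats every read as independent may be too narrow there. The part of this in the ratios given next was not tested.

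**Figure D1:**
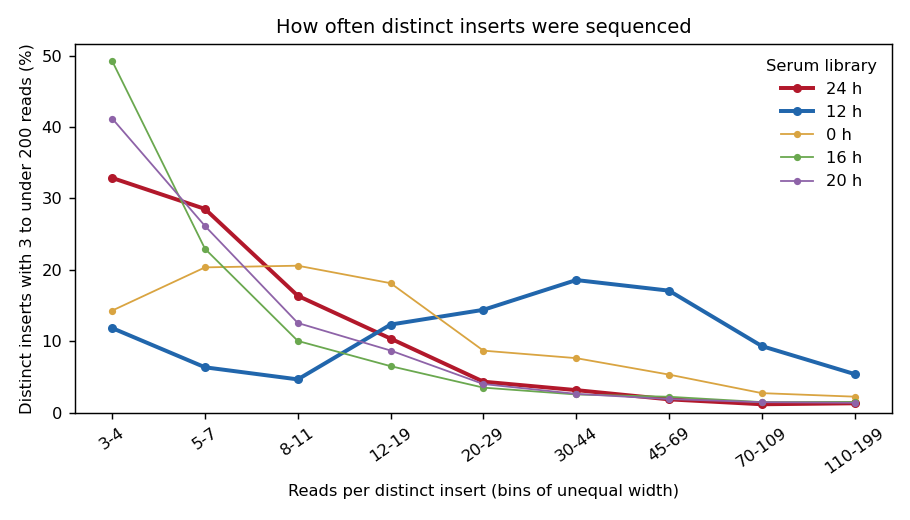
Share of distinct inserts with 3 to under 200 reads (y axis, percent) by the reads each had (x axis, bins of unequal width), 1 line per serum library. At 24 h 77.8% of these inserts had fewer than 12 reads, and at 12 h 22.9% had.

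Levels are counts per 1000000 miRNA reads (CPM), scaled by the trimmed mean of M-values (TMM), and a ratio is the 24 h level over the 12 h level. Each ratio has 2 intervals. The counting interval is the 95% exact conditional binomial interval on reads. The second, called the clump interval, is the same on reads divided by the median reads per insert, 6 at 24 h and 30 at 12 h, and was chosen after the counts were seen. Neither interval holds any spread between cultures. A count of 0 was set to 3 counts in its library, 18.1 CPM at 24 h and 10.9 CPM at 12 h, which makes a ratio a bound.

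Of 140 arms with at least 100 reads in either library, 18 (12.9%) were at least 2-fold higher at 24 h and 26 (18.6%) at least 2-fold lower with a counting interval that excluded 1, together 44 (31.4%). With library totals in place of TMM the split was 12 higher and 31 lower, and with DESeq2 size factors 20 higher and 22 lower. Library totals move every log2 ratio by −0.16. By the clump interval 13 (9.29%) were higher and 13 (9.29%) lower, all among the 44. By the same counting rule the 24 h library differed at 8.13% of 123 arms from 20 h, at 33.2% of 208 from 16 h and at 38.2% of 152 from 0 h. The 12 h library differed at 22.6% of 146 arms from 20 h, at 49.1% of 212 from 16 h and at 50.6% of 170 from 0 h. The pairs without either G1 library differed at 35.3% (20 h over 0 h), 29.3% (20 h over 16 h) and 20.9% (16 h over 0 h) of arms. The number of arms 2-fold apart between the G1 libraries thus lay within the range of the other pairs, several of which share a library with it.

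The median log2 ratio over the 140 arms was 0.05 (quartiles −0.59 and 0.49), and 74 arms (52.9%) lay within 1.5-fold. The ratios spread out as levels fell. Of 15 arms with a mean level of 10000 CPM or more, 0 were 2-fold apart. Of 63 arms between 1000 and 10000 CPM, 10 were higher and 5 lower. Of 62 arms under 1000 CPM, 8 were higher and 21 lower, so that most of the lower arms were scarce ones. The 44 arms held 5.51% of miRNA reads at 24 h and 6.53% at 12 h.

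**Figure D2:**
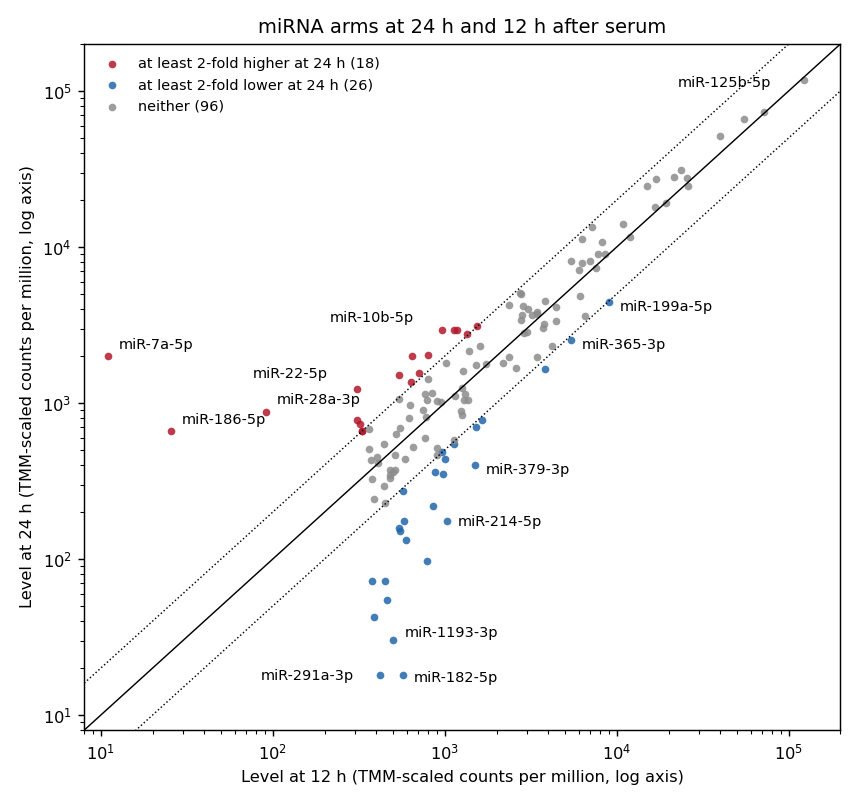
Level of each of 140 miRNA arms at 24 h (y axis) and at 12 h (x axis), in TMM-scaled CPM on log axes. Red points are the 18 arms at least 2-fold higher at 24 h, blue the 26 lower and grey the rest, the solid line marks equal levels, dotted lines mark 2-fold, and counts of 0 stand at 3 counts.

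The abundant miRNAs were within 2-fold in the 2 G1 libraries, and among the 10 most abundant let-7a-5p (1.61), let-7f-5p (1.64) and let-7c-5p (1.33) stood farthest apart. They are described with their family. miR-125b-5p, a miRNA that represses p53 and is made from 2 hairpins, had 117888 CPM at 24 h and 122501 CPM at 12 h, a ratio of 0.962 (counting interval 0.945 to 0.979). It turned above 1, to 1.03, with DESeq2 size factors. It was thus level between the libraries to within what the scaling decides, while 0 h (49110.3 CPM) and 16 h (62427 CPM) held less of it and 20 h (118901 CPM) about as much. miR-199a-3p, whose sequence miR-199b-3p shares, comes from mesenchymal miRNA genes and had 73179 CPM at 24 h and 71443 CPM at 12 h, a ratio of 1.02. This value also changed side with the scaling, to 0.915 with library totals.

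miR-29a-3p, which represses collagens, had 66264 CPM at 24 h and 55320.1 CPM at 12 h (ratio 1.20, 1.17 to 1.23). miR-21a-5p, induced by growth factors, had 51558 CPM at 24 h and 40091 CPM at 12 h (1.29, 1.25 to 1.32). Both ratios kept above 1 in the clump interval, which ran from 1.08 to 1.32 for miR-29a-3p and from 1.14 to 1.44 for miR-21a-5p. miR-24-3p, made from 2 hairpins, had 28102 CPM at 24 h and 21573 CPM at 12 h (1.30). miR-26a-5p, which represses Ezh2, had 24506 CPM at 24 h and 25890.0 CPM at 12 h (0.947, or 1.01 with DESeq2 size factors). The 10 most abundant arms took 57.7% of miRNA reads in either library.

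The largest ratio upward was that of miR-7a-5p, a miRNA that represses Egfr and insulin-pathway genes, is abundant in neural and endocrine cells and is made here from 2 hairpins that its reads cannot tell apart. It had 331 reads at 24 h and 0 reads at 12 h, and its levels were 400.3, 0, 1397, 973 and 1997 CPM at 0, 12, 16, 20 and 24 h. The 24 h level was thus the highest of the 5. With the 0 at 12 h replaced as described for counts of 0, the ratio was 183. The counting interval began at 148 and the clump interval at 4.77, so the size of the ratio rests on that replacement. miR-186-5p (chr3:157544285-157544306, plus strand), in an intron of the splicing factor gene Zranb2, had 110 reads at 24 h and 7 at 12 h. Its levels were 939, 25.5, 994, 1224 and 664 CPM in time order, so 12 h was low and the other 4 times lay between 664 and 1224 CPM. The ratio was 26.01 (counting interval 12.2 to 66.2), and the clump interval began at 1.46.

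Both arms of miR-28a, made from an intron of the adhesion gene Lpp, were higher at 24 h. miR-28a-3p (chr16:24827908-24827929) had 146 reads at 24 h and 25 at 12 h, with 464, 91.1, 866, 408 and 881 CPM in time order and a ratio of 9.67 (6.29 to 15.4). miR-28a-5p (chr16:24827868-24827889) had 1497, 798, 1684, 1574 and 2015 CPM and a ratio of 2.52 (2.12 to 3.01). For either arm 12 h was the lowest of the 5 libraries and 24 h the highest.

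miR-10b-5p (chr2:74726074-74726096), a miRNA of the Hoxd gene cluster in introns of Hoxd3 and Hoxd4, had 4390.3, 963, 3293, 2283 and 2951 CPM in time order. The 24 h level was 3.07-fold that at 12 h (2.63 to 3.57; clump interval 1.51 to 6.83), and 12 h lay below every other serum library. miR-495-3p (chr12:109718795-109718816), of the imprinted Dlk1-Dio3 locus, had 2358, 1181, 1789, 2233 and 2957 CPM and a ratio of 2.50 (2.17 to 2.89). miR-331-3p (chr10:93963783-93963803), in an exon of Vezt, had 212, 543, 337, 1614 and 1521 CPM and a ratio of 2.80 (2.28 to 3.45), or 1.94 with 21 bases for matching. Unlike the others it was lowest at 0 h, and its 24 h level was close to that at 20 h.

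miR-22-5p (chr11:75463734-75463755), the scarcer arm of its hairpin in the Mir22hg transcript, had 1225, 309.9, 1357, 982 and 1225 CPM and a ratio of 3.95 (3.05 to 5.15). Its partner miR-22-3p had 7356 CPM at 24 h and 7565 CPM at 12 h, a ratio of 0.972 that stood at 1.04 with DESeq2 size factors. miR-340-5p, in an intron of Rnf130, had 778 CPM at 24 h and 309.9 CPM at 12 h (2.51, 1.90 to 3.34), with a clump interval from 0.729 to 12.7. It is 1 of 5 higher arms whose clump interval held 1, with miR-20a-5p, miR-296-5p, miR-485-3p and miR-31-5p.

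Placed in the time course, the higher arms were mostly arms that were low at 12 h. In 13 of the 18, 12 h was the lowest of the 5 serum libraries, and in 7 of the 18 24 h was the highest, against 42 and 22 of all 140 arms. In 8 the 12 h level was under 0.5 of the levels at both 16 h and 20 h, against 12 of all 140 arms. In 0 was the 24 h level over 2-fold of both, against 0 of all 140. The arms had been chosen for their 24 h to 12 h ratio, so part of this pattern is set by that choice.

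**Figure D3:**
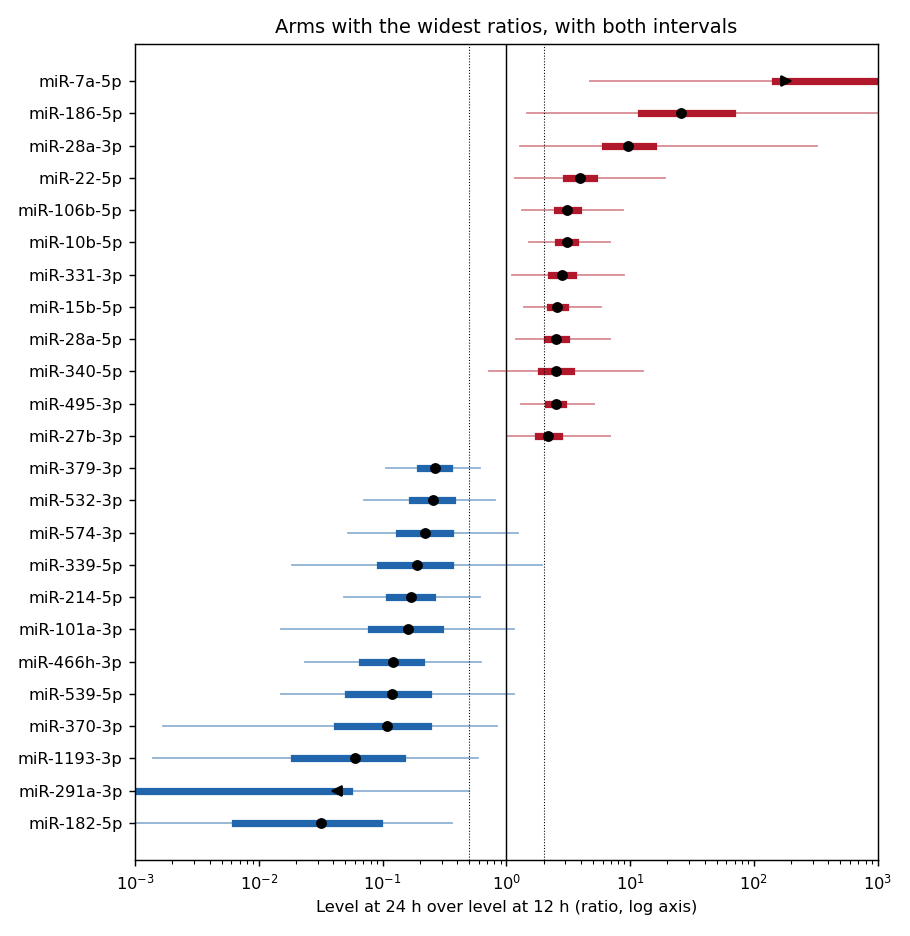
Ratio of the 24 h level to the 12 h level (x axis, log scale) for the 12 higher (red, top) and 12 lower arms (blue, bottom) ranked first by the interval bound nearer 1, where thick lines are counting intervals and thin lines clump intervals. Arrowheads mark bounds against a count of 0, lines run off the axis where an interval is open, and the clump interval crosses 1 for miR-340-5p, miR-574-3p, miR-339-5p, miR-101a-3p and miR-539-5p.

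Among the lower arms, miR-291a-3p (chr7:3218968-3218989) of the miR-290 to miR-295 cluster had 0 reads at 24 h and 115 at 12 h. Its levels were 43.7, 419, 0, 0 and 0 CPM in time order. With the 0 at 24 h set to 3 counts the ratio was 0.0432. The upper counting bound was 0.0540 and the upper clump bound 0.501. miR-182-5p (chr6:30165962-30165986), of a cluster best known from sensory organs, had 3 reads at 24 h and 157 at 12 h. Its levels were 643, 572, 238, 341 and 18.1 CPM, so that here 24 h and not 12 h stood apart, with a ratio of 0.0316 (0.00645 to 0.0941; upper clump bound 0.361). Its neighbour on chromosome 6, miR-183-5p, had 374 CPM at 24 h and 514 CPM at 12 h, a ratio of 0.728.

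miR-1193-3p (chr12:109715750-109715770) of the Dlk1-Dio3 locus had 74.0, 503, 154, 211 and 30.2 CPM in time order and a ratio of 0.0600 (0.0192 to 0.143). miR-370-3p (chr12:109618305-109618326), in an intron of Rian at the same locus, had 80.7, 390.1, 54.7, 80.7 and 42.2 CPM and a ratio of 0.108 (0.0425 to 0.231). miR-539-5p, of the same locus, had 54.3 CPM at 24 h and 459 CPM at 12 h (0.118), with a clump interval from 0.0150 to 1.15. For miR-1193-3p and miR-370-3p 12 h was the highest and 24 h the lowest of the 5 libraries. miR-466h-3p (chr2:10514940-10514963) lies in the Sfmbt2 intron that carries a large rodent miRNA cluster. It had 37.0, 791, 89.0, 26.9 and 96.6 CPM and a ratio of 0.122 (0.0685 to 0.203). The list of Sfmbt2 intron miRNAs, which leaves out this arm, had 0 members with enough reads. Its summed level was 990 CPM at 24 h and 700 CPM at 12 h, a ratio of 1.41 (1.14 to 1.75), or 1.04 with 21 bases for matching.

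miR-214-5p (chr1:162223397-162223418), from the Dnm3os transcript that also carries a miR-199a hairpin, had 246, 1028, 251, 224 and 175 CPM in time order. Only 12 h was high, at a ratio of 0.170 (0.112 to 0.250; clump interval 0.0484 to 0.611). miR-379-3p (chr12:109709102-109709123) had 858, 1498, 603, 583 and 398 CPM and a ratio of 0.266 (0.202 to 0.345). miR-532-3p, in an intron of Clcn5, had 217 CPM at 24 h and 857 CPM at 12 h (0.254, 0.173 to 0.361). In all 3 the clump interval stayed below 1.

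For 13 of the 26 lower arms the clump interval held 1, among them miR-539-5p and the 3 given next. miR-101a-3p, a repressor of Ezh2, had 12 reads at 24 h and 123 at 12 h (ratio 0.161, clump interval 0.0150 to 1.15). miR-574-3p had 22 and miR-339-5p 12 reads at 24 h, against 164 and 104 at 12 h, with ratios of 0.222 and 0.191. The related miR-101b-3p went the other way, with 88 reads at 24 h and 0 at 12 h and with 508, 0, 720.3, 565 and 531 CPM in time order. It fell short of the 100 reads needed to be counted.

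Of the 26 lower arms, 19 had their highest of 5 levels at 12 h, against 36 of all 140, and 14 had their lowest at 24 h, against 25 of all 140. In 9 the 12 h level was over 2-fold of both 16 h and 20 h, against 9 of all 140. In 7 the 24 h level was under 0.5 of both, against 7 of all 140. These arms too had been chosen for their 24 h to 12 h ratio, which sets part of this pattern. The lower arms were the less abundant of the 2 strands of their hairpin in 7 of 26, against 2 of 18 higher arms and 17 of all 140. Of the higher arms 13 came from the 5′ arm and 5 from the 3′ arm. Of the lower arms with an arm in their name, 10 came from the 5′ arm and 15 from the 3′ arm. Among all 140 arms, 69 came from the 5′ arm and 69 from the 3′ arm. Median GC content was 43.2% for the higher arms, 49.0% for the lower ones and 47.6% for the rest.

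**Figure D4:**
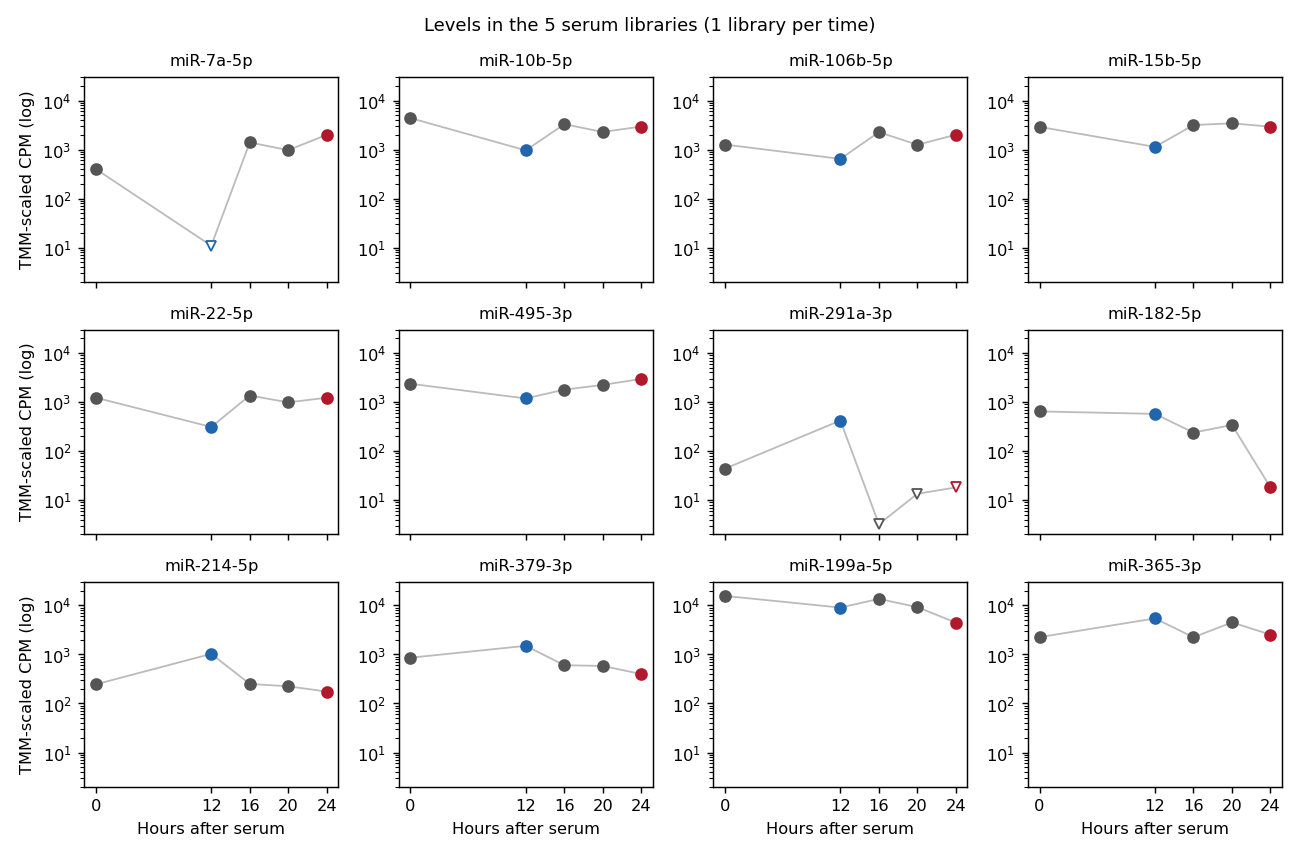
Levels of 6 arms higher and 6 lower at 24 h than at 12 h in the 5 serum libraries (y axis, TMM-scaled CPM on a log scale, x axis, hours after serum), with 24 h in red, 12 h in blue, the other times in grey and counts of 0 as open triangles at 3 counts. The higher arms have their lowest point at 12 h, while among the lower ones miR-291a-3p, miR-214-5p and miR-379-3p peak at 12 h and miR-182-5p and miR-199a-5p are lowest at 24 h.

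The miRNA families are taken in order of their links to the cell cycle, each by its members with enough reads. The background to every count is that 12.9% of all 140 arms were higher and 18.6% lower. In the list of the Mir17hg cluster and its paralogs, which promote S-phase entry, 3 of 6 members were higher and 0 lower, with a median log2 ratio of 0.95 against 0.05 for all arms. Over all members of the list the summed level was 13463 CPM at 24 h and 7558 CPM at 12 h, a ratio of 1.78 (1.68 to 1.89).

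miR-106b-5p (chr5:138165787-138165807), in an intron of the replication licensing gene Mcm7, had 1265, 645, 2268, 1251 and 2009 CPM in time order and a ratio of 3.11 (2.59 to 3.76; clump interval 1.33 to 8.78). miR-17-5p (chr14:115043684-115043706), of the Mir17hg transcript, had 797, 1535, 4057, 1892 and 3119.8 CPM and a ratio of 2.03 (1.78 to 2.32). Its ratio fell below 2 with library totals (1.82) and with 4 other settings (1.91 to 1.99). miR-20a-5p (chr14:115044183-115044205), of the same transcript, had 579, 321, 1845, 475 and 736 CPM and a ratio of 2.29 (1.73 to 3.05). All 3 had their highest level at 16 h, the library labelled S.

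miR-93-5p, next to miR-106b in Mcm7, had 1038 CPM at 24 h and 788 CPM at 12 h (ratio 1.32). The 4 arms with the seed AAAGUGC together had 6903 CPM at 24 h and 3289 CPM at 12 h, a ratio of 2.10 (1.92 to 2.29). miR-92a-3p, with another seed, had 5033 CPM at 24 h and 2742 CPM at 12 h (1.84, 1.66 to 2.03). miR-19b-3p, also of the Mir17hg cluster, stood on the other side, with 465 CPM at 24 h and 897 CPM at 12 h (0.518, 0.396 to 0.672).

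In the miR-16 family 1 of 5 members was higher and 0 lower, with a median log2 ratio of 0.38. miR-15b-5p (chr3:69009775-69009796), in an intron of the condensin gene Smc4, had 2903, 1134, 3162, 3430.5 and 2927 CPM in time order and a ratio of 2.58 (2.23 to 2.99; clump interval 1.39 to 5.80). The 12 h level was low and the other 4 lay close together. miR-16-5p, partly from the same intron, had 14126 CPM at 24 h and 10887 CPM at 12 h (1.30, 1.23 to 1.37). miR-15a-5p stood at 1.89 and miR-195a-5p at 0.670. miR-322-5p, the family member of the X-linked miR-322/miR-503 cluster, had 3819.8 CPM at 24 h and 3449 CPM at 12 h, a ratio of 1.11 that became 0.990 with library totals. Its cluster neighbour miR-351-5p stood at 0.942 (1.01 with DESeq2 size factors), and miR-503-5p, with 59 reads at 24 h and 61 at 12 h, was too scarce to be counted.

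In the let-7 family, miRNAs that restrain growth, 1 of 9 members was higher and 0 lower, but 8 of 9 ratios were above 1. The median log2 ratio was 0.69. The family took 16.8% of miRNA reads at 24 h (95% exact binomial interval 16.6 to 17.0%) and 13.6% at 12 h (13.4 to 13.7%), a scaled ratio of 1.39 (1.36 to 1.41), or 1.24 with library totals. let-7a-5p had 27294 CPM at 24 h and 16903 CPM at 12 h (1.61, clump interval 1.35 to 1.93). let-7f-5p had 24717 CPM at 24 h and 15032 CPM at 12 h (1.64). let-7c-5p had 31306 CPM at 24 h and 23593 CPM at 12 h (1.33, clump interval 1.14 to 1.55). let-7b-5p, at 0.990, was the member not above 1, and with DESeq2 size factors it too stood above 1, at 1.06.

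miR-98-5p (chrX:151913229-151913250), the let-7 member in an intron of Huwe1, had 2197, 1345, 2976, 1457 and 2782 CPM in time order and a ratio of 2.07 (1.80 to 2.38), which fell below 2 with library totals (1.85) and 3 other settings (1.92 to 1.95). Summed over the family, levels in time order were 105588, 99553, 153890, 85233 and 137880 CPM. With TMM 24 h thus lay nearest to 16 h, and 12 h nearer to 0 h and 20 h. Other scalings were not used for these sums over time.

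Of the clusters that hold miR-23, miR-24 and miR-27, 1 of 4 members was higher and 4 of 4 ratios were above 1, with a median log2 ratio of 0.62. miR-27b-3p, a regulator of lipid metabolism, had 1796, 711, 2726, 1780.3 and 1551 CPM in time order and a ratio of 2.18 (1.80 to 2.64), or 1.95 with library totals. miR-27a-3p had 4984 CPM at 24 h and 2767 CPM at 12 h (1.80, 1.63 to 1.99). miR-23a-3p, of the same cluster as miR-27a, stood at 1.08, and at 0.964 with library totals.

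In the miR-29 family 3 of 3 ratios were above 1 and 0 members were called, with miR-29b-3p at 1.46 and miR-29c-3p at 1.22. Of the growth-factor or serum responsive miRNAs 1 of 6 was higher. miR-31-5p had 2378, 328, 1510.3, 870.0 and 664 CPM in time order and a ratio of 2.02 (1.52 to 2.70), below 2 with library totals (1.81) and 4 other settings. miR-221-3p and miR-222-3p, made side by side on the X chromosome and sharing a seed and the target p27, stood on opposite sides of 1. miR-221-3p had 4869.8 CPM at 24 h and 6147 CPM at 12 h (0.792, 0.728 to 0.862). miR-222-3p had 10693 CPM at 24 h and 8182 CPM at 12 h (1.31, 1.23 to 1.39). The clump interval held 1 for miR-221-3p (0.576 to 1.10) and began just above 1 for miR-222-3p (1.007 to 1.70).

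Of the miR-34 family, targets of p53, only miR-34b-3p had enough reads, with 157 CPM at 24 h and 543 CPM at 12 h. Its ratio was 0.289 (0.183 to 0.440, clump interval 0.0525 to 1.23). It is the arm of its hairpin with fewer reads over the serum libraries. Below the read minimum, miR-34b-5p stood at 1.28, miR-34c-3p at 3.16 and miR-34a-5p at 0.946. Summed over the list, the level was 917 CPM at 24 h and 1006 CPM at 12 h, a ratio of 0.911 (0.743 to 1.12). In the list of the miR-10, miR-99, miR-100 and miR-125 relatives miR-10b-5p alone was called among 6, and miR-125a-5p had 27668 CPM at 24 h and 25693 CPM at 12 h (1.08, or 0.963 with library totals). miR-99b-5p stood at 1.15. In the miR-26 and miR-101 list of 3, miR-101a-3p was lower and miR-26b-5p had 13469 CPM at 24 h and 7204 CPM at 12 h (1.87, 1.76 to 1.99).

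Of 3 miR-30 members 0 were called, with miR-30b-5p at 1.26, miR-30c-5p at 0.757 and miR-30d-5p at 0.816. Of the miR-181 family 0 of 2 were called, with miR-181a-5p at 0.970 (1.03 with DESeq2 size factors). Of 4 in the list of the miR-148, miR-152, miR-130 and miR-301 families 0 were called, among them miR-130a-3p at 1.22, which stood at 0.799 when 21 bases were matched. miR-152-3p stood at 1.15 and miR-301a-3p at 1.05 (0.942 with library totals). In the metabolic and intronic list of 7, miR-186-5p was higher and miR-210-3p, induced by hypoxia, was lower. miR-210-3p had 1386, 547, 547, 395 and 151 CPM in time order and a ratio of 0.276 (0.173 to 0.423; clump interval 0.0525 to 1.23). The 24 h library had the least of it.

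**Figure D5:**
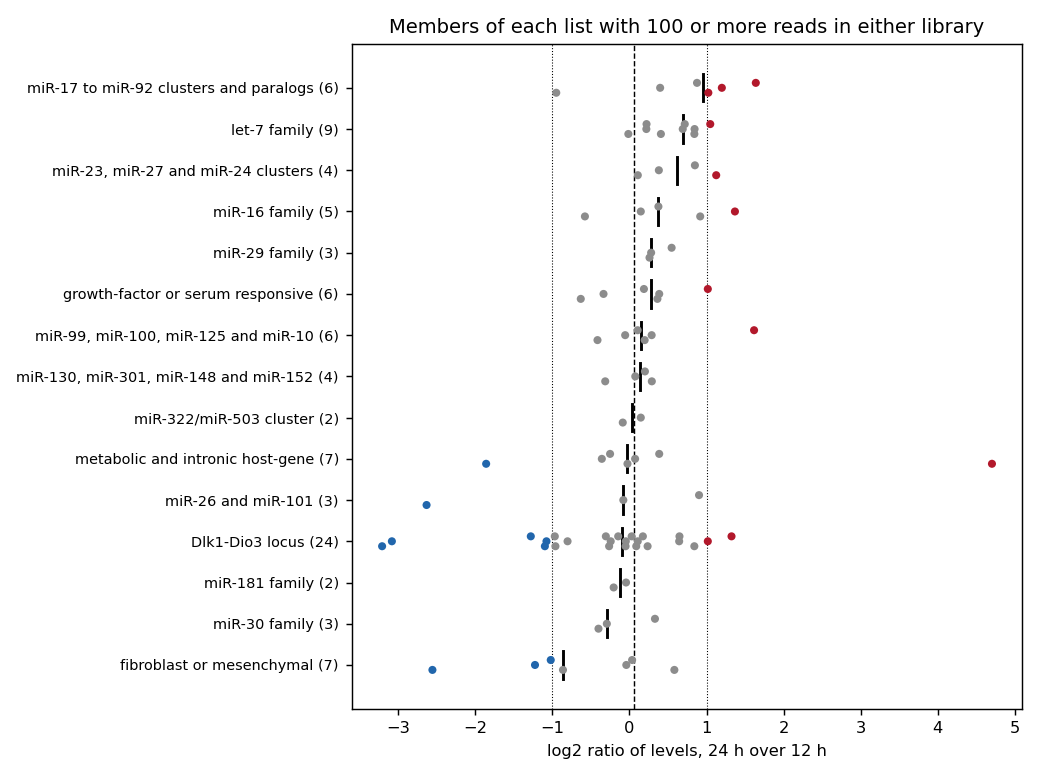
log2 ratio of each list member with enough reads, 24 h over 12 h (x axis), by list (y axis, number of members in brackets), with arms at least 2-fold higher in red and lower in blue. Black bars are list medians, from 0.95 for the miR-17 to miR-92 list to −0.86 for the fibroblast list, the dashed line is the median of all 140 arms and dotted lines mark 2-fold.

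Fibroblast or mesenchymal miRNAs, which define the labelled cell type, were abundant in both libraries, and the 7 of 10 listed arms that had reads were all above the read minimum. They took 11.9% of miRNA reads at 24 h and 14.01% at 12 h. Of the 7, 0 were higher and 3 lower, with a median log2 ratio of −0.86, and by the clump interval the same 3 were lower. miR-199a-5p, made from 2 hairpins, had 15619.9, 9046, 13604, 9229 and 4459 CPM in time order and a ratio of 0.493 (0.454 to 0.535). It lost the 2-fold call with DESeq2 size factors (0.526) and with 18 bases (0.509). miR-145a-5p, a smooth-muscle and fibroblast miRNA, had 1696, 3836, 1915, 2578 and 1641 CPM and a ratio of 0.428 (0.373 to 0.489; clump interval 0.268 to 0.682).

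miR-214-3p had 2311 CPM at 24 h and 4200.1 CPM at 12 h (0.550), and miR-214-5p is given above. miR-143-3p, from the same cluster as miR-145a, had 8146 CPM at 24 h and 5439.8 CPM at 12 h (1.498, 1.39 to 1.61; clump interval 1.09 to 2.07). Arms of 1 transcript thus lay on opposite sides of 1, miR-143-3p above and miR-145a-5p below. Outside the list, miR-365-3p had 2254, 5436, 2241, 4502 and 2540.5 CPM in time order and a ratio of 0.467 (0.418 to 0.521; clump interval 0.318 to 0.680). It was high at 12 h and 20 h and lower at the other 3 times.

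Markers of other cell types were few at 24 h and 12 h. Of epithelial miRNAs 0 of 6 arms in the tables had a read at 24 h or at 12 h, and of blood miRNAs 0 of 3, so their summed share was 0% in both libraries, with 95% upper limits of 0.00272% at 24 h and 0.00184% at 12 h. The epithelial list did have reads at the other serum times, summing to 2439 CPM at 0 h, 13.9 CPM at 16 h and 53.8 CPM at 20 h. The blood list summed to 209 CPM at 0 h, 2.14 CPM at 16 h and 0 CPM at 20 h. Muscle miRNAs had 61 reads at 24 h and 44 at 12 h, of which miR-206-3p had 54 and 44. The liver marker miR-194-5p had 12 reads at 24 h and 0 at 12 h.

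Pluripotent and neural markers differed. Of the pluripotent list, miR-291a-3p had 0 reads at 24 h and 115 at 12 h, miR-294-3p 0 and 85, and miR-293-3p 2 and 83, which gives a summed share of 0.00147% at 24 h and 0.141% at 12 h. The other 4 listed arms with reads elsewhere in the series, miR-290a-5p, miR-291a-5p, miR-292a-5p and miR-295-3p, had 0 reads in both. In the other serum libraries the summed level of the list was 175 CPM at 0 h, 2.14 CPM at 16 h and 49.3 CPM at 20 h, against 12.1 CPM at 24 h and 1032 CPM at 12 h. Of the neural list, miR-7a-5p had 331 reads at 24 h and 0 at 12 h, miR-128-3p 97 and 0, miR-9-5p 5 and 0, and miR-9-3p 0 and 94. The arms of miR-9 were thus each read in a different library. Whether RNA from other cells, or the higher number of reads per insert at 12 h, had a part in these values was not tested.

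Counting all arms with at least 10 reads in either library, 267 in number, 44 had 0 reads at 12 h and up to 331 at 24 h (median 19). A further 14 had 0 reads at 24 h and up to 115 at 12 h (median 53). With this lower minimum 74 arms were higher and 53 lower.

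The Dlk1-Dio3 locus on chromosome 12 is an imprinted run of miRNA genes read from the maternal chromosome. Of 24 listed members with enough reads 2 were higher and 5 lower, and the summed level of all listed members was 50822 CPM at 24 h and 51014 CPM at 12 h. With TMM the sum lay between 50443 and 51162 CPM in the 5 serum libraries, but with library totals it ran from 53417 CPM at 16 h to 69685 CPM at 12 h. Its ratio of 0.996 became 0.890 with library totals and 1.06 with DESeq2 size factors. The median log2 ratio of the 24 was −0.10.

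Within chr12:109709065-109743784, 26 arms of 21 hairpins were measured, 2 higher and 6 lower, with ratios from 0.0600 (miR-1193-3p) to 2.50 (miR-495-3p). miR-411-5p had 3693 CPM at 24 h and 3427 CPM at 12 h (1.08, or 0.963 with library totals), and miR-541-5p had 7078 CPM at 24 h and 6012 CPM at 12 h (1.18, 1.09 to 1.27). Within chr12:109590459-109595352, 6 arms were measured, 0 higher and 2 lower, with miR-127-3p, the most abundant of the locus, at 11586 CPM at 24 h and 11995 CPM at 12 h (0.966, or 1.03 with DESeq2 size factors). Of the other runs of 3 arms, miR-99b-5p, let-7e-5p and miR-125a-5p on chromosome 17 stood between 1.08 and 1.16. In the run of let-7d-3p, let-7d-5p and let-7a-5p on chromosome 13 the ratios lay between 1.32 and 1.80. Arms of 1 run come from a shared transcript and are not independent.

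The arms of single hairpins gave a ratio that needs no scaling between libraries. Of 24 hairpins with at least 20 reads of each arm in each library, 19 had the same more abundant arm at 24 h and 12 h, and 10 differed by more than 1 log2 unit in the ratio of 5p to 3p reads. The widest was Mir376b, whose 5p arm made up 15.2% of its reads at 24 h (95% exact binomial interval 10.4 to 21.1%) and 48.2% at 12 h (42.7 to 53.7%), against 7.41% at 0 h, 22.8% at 16 h and 20.8% at 20 h. The 12 h library was the exception among the 5. For Mir379 the 5p share was 81.7% at 24 h (77.3 to 85.5%) and 53.7% at 12 h (50.4 to 57.0%), against 75.7% to 85.8% at the other times.

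For Mir22 the 5p share was 14.3% at 24 h (12.5 to 16.2%) and 3.94% at 12 h (3.15 to 4.84%), against 8.09% to 9.25% at the other times, with 24 h on the high side and 12 h on the low side. For Mir34b it was 61.2% at 24 h (48.5 to 72.9%) and 26.2% at 12 h (20.3 to 32.9%), but 25.2% at 20 h also. These intervals count single reads and carry the narrowness described for 12 h.

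The arms at the edge of the read minimum were near 100 reads in one library. Just inside it were miR-127-5p with 84 reads at 24 h and 100 at 12 h, miR-674-5p with 71 and 102, and miR-181d-5p with 54 and 103. Just outside were miR-134-5p with 64 and 99, miR-369-5p with 83 and 99, and miR-30a-5p with 99 and 86. None of the 6 was 2-fold apart, with ratios between 0.868 (miR-181d-5p) and 1.91 (miR-30a-5p).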

How the data were processed

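Per the labels, NIH-3T3 small-RNA libraries were made by an earlier published protocol. The authors deposited counts of distinct 36-base reads with the 3′ adapter still in place. For the read caller, filters and any alignment, the steps were not given in the sources used here. Computation used Python 3.11.15 with scipy 1.17.1, numpy 2.4.6, pandas 2.3.3 and matplotlib 3.10.9. The adapter and 2 marker oligonucleotides of 18 and 30 bases were learned from the reads. Trimming needed 6 or more adapter bases and let 1 in 8 mismatch. Marker reads (12 shared bases or within 3 edits) and inserts outside 16 to 30 bases were dropped.

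Reads were counted for a mature arm by their first 20 bases. Arms came from the RefSeq mature table (1738 entries) and, for hairpins of GENCODE M21 without a RefSeq entry, from the reads, which added 123. In all 438 arms had 10 or more reads summed over the 8 libraries, and 44 of them come from more than 1 hairpin. TMM factors (edgeR 4.0.16, R 4.3.3) over the 8 libraries were 1.22 at 24 h and 1.37 at 12 h. Ratios and counting intervals were checked on simulated data with independent reads. The simulation held none of the clumping seen at 12 h, so it cannot show how narrow the counting interval is there. Ratio and share intervals are 95% exact binomial and, since reads carry no molecular identifiers, cover counting error only.

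Named arms were up to 12 called in each direction, the 10 most abundant, up to 3 per list with called members of short lists, detected markers of other cell types, arms next to the read minimum, the 4 hairpins with the widest arm change and the 4 longest runs. Other arms were chosen after their values were seen. The comparison, lists and rules were chosen with earlier results of these data known. Alternatives were library totals, DESeq2 1.42.0 size factors, TMM from the 24 h and 12 h libraries alone, other read minimums, matching lengths, insert lengths and adapter rules, 3-fold, 2-fold past the interval, and the clump interval.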

Additional observations from a re-analysis of the deposited data

How the results depend on the processing

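Of 784 values of named arms and lists over 7 settings, 0 turned the direction of a called arm. In all, 601 moved by less than their counting interval and 183 by more. The other scalings multiply every ratio by a common factor, too small to turn a 2-fold call. Some arms and lists that were not called did change direction with the scaling, such as miR-125b-5p. The counts depended most on the read minimum. With at least 500 reads 1 arm was higher and 3 lower at 24 h than at 12 h (7.69% of 52 arms), and with at least 10 reads 74 and 53 (47.6% of 267). A 3-fold rule left 6 higher and 15 lower (15%), and 2-fold past the counting bound 10 and 17 (19.3%). By the clump interval, chosen after the counts were seen, 13 were lower and 18.6% of arms were apart in either direction. Under other scalings, matching and trimming 12 to 20 arms were higher and 22 to 31 lower. With library totals 38 of the 44 calls were kept, and with DESeq2 size factors 40. Of 33 named arms that were called, 6 had a ratio within 2-fold in at least 1 of the 7 settings of scaling, matching and trimming. Calls lost by the clump interval, the read minimums or the stricter fold rules are not in that count.

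No paired analysis was possible because each time has 1 library and the result comes from no test. For the same reason no library could be left out. Differences between 24 h and 12 h therefore cannot be told apart from differences between cultures or library preparations. An arm with fewer than 3 counts in a library cannot be told from 0 there.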

Other observations

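The 3′ ends of miRNA reads also differed between the libraries. Added bases were scored on a part of the miRNA reads, 72602 of 135728 at 24 h and 102952 of 200790 at 12 h. Ends with added A made up 8.95% of the scored reads at 24 h (95% exact binomial interval 8.75 to 9.16%) and 6.78% at 12 h (6.63 to 6.94%). The share was 4.61%, 6.40% and 6.62% at 0, 16 and 20 h. Ends with added U made up 4.33% at 24 h (4.19 to 4.49%) and 5.83% at 12 h (5.69 to 5.97%), against 4.12% to 4.71% at the other times. The library with most A ends was thus 24 h and the one with most U ends was 12 h. By arm the directions were mixed. miR-127-3p had 20% A ends at 24 h and 3.13% at 12 h, and let-7d-5p 12.1% at 24 h and 2.45% at 12 h. miR-26b-5p stood the other way, with 10.8% at 24 h and 21.1% at 12 h, as did miR-222-3p with 11.7% at 24 h and 21.8% at 12 h. These arms were chosen after their values were seen. The intervals on the shares of added bases count single reads and carry the narrowness described for 12 h.

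The mean length of miRNA reads was 22.2 bases in both libraries, and the median difference over 89 arms with 100 or more reads in each was 0.013 bases. The number of distinct 3′ forms per arm had a median of 13 at 24 h and 8 at 12 h, and was greater at 24 h in 75 of the 89 arms and smaller in 9. Forms are the distinct inserts of an arm, so this count is not separate from the fewer distinct inserts at 12 h given above.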
